A study of Mus musculus with 20 samples.

Results

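Wild type TL1 mouse embryonic stem (ES) cells and the embryoid bodies (EB) made from them were compared by RNA-seq over every expressed gene. TL1 is a line of mouse ES cells, and embryoid bodies are the aggregates in which such cells differentiate once the cytokine LIF is taken away. A gene was counted as expressed where it had at least 1 FPKM (fragments per kilobase of transcript, scaled to the number of mapped fragments, so a level corrected for length) in at least 2 of the 4 wild type libraries. This took in 14592 of 53440 genes. Of these, 11218 reached that level in all 4 libraries, 2132 in both EB but not both ES libraries, 1062 in both ES but not both EB libraries, and 180 in 1 library of each stage. The rule used the level and not the difference between stages, but a gene taken in through 1 stage alone had to differ, so lists are also described over the members expressed at both stages.

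The 2 EB wild type libraries came from cells in ES culture medium without LIF, and the 2 ES wild type libraries from cells in the same kind of medium with LIF, both with 15% FBS. The labels of the RNA libraries give no age for the embryoid bodies. The series holds 20 samples, among them 4 RNA libraries from EB and ES cells in which CRISPR removed p150, the large subunit of the chromatin assembly factor CAF-1; these entered the fit only to estimate the spread between libraries. Histone H3K27me3 and H3K4me3 were mapped in 1 wild type library a stage.

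Cells that leave pluripotency change more than their marker genes. Mouse ES cells divide fast and are known for heavy investment in ribosomes, nucleotides and protein synthesis, and for breaking down threonine to feed one-carbon metabolism. As embryoid bodies form tissues, cells lay down extracellular matrix, build secretory and lysosomal organelles, take up position through guidance and growth factor receptors, and exchange 1 member of a protein family for another. The gene families below follow that order, from the machinery of growth to the cell surface, the cytoskeleton and the regulators of chromatin and transcription.

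Summed FPKM were 683450 and 641692 in EB, against 727343 and 705069 in ES, over the genes of the table. With FPKM in place of read counts, depth is not known. Whether the libraries of a stage were grown as separate cultures is not in the labels, so each p-value reflects only how far such libraries spread, and this spread may be technical. The strandedness of the reads is not stated, so genes that overlap on opposite strands cannot be told apart.

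The 2 stages differed over most of the expressed genes. With limma on log2(FPKM + 1) and an adjusted p under 0.05 (Benjamini-Hochberg, over all 14592 genes), 9282 genes (63.6%) were called, 5572 higher in EB (38.2%) and 3710 lower (25.4%). A change of 2-fold or more was called upward in 3608 genes (24.7%) and downward in 1860 (12.7%). Fold changes are on the log2(FPKM + 1) scale, which understates the change of low genes. The median change over all tested genes was 0.15 on the log2 scale. It was 0.25 with the libraries scaled to the same total and -0.09 with quantile normalization, so changes of that size depend on the scaling. Among the 11218 genes expressed in all 4 libraries 32.7% were called higher and 26.1% lower. The share of calls that were higher in EB was 60.0%, or 64.8% with scaling to the same total and 46.5% with quantile normalization.

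Differences between the stages were large beside those within them. The absolute log2 difference between the EB libraries had a median of 0.167 over the tested genes, and that between the ES libraries one of 0.182. The same measure between the stage means was 0.742. A 2-fold gap separated the EB libraries in 356 genes (2.44%), the ES libraries in 284 (1.95%) and the stage means in 5564 (38.1%). Genes named below as examples of a list, or for the largest changes, had to be called with no overlap between EB and ES libraries. The lack of overlap stated for them was thus a condition of being named and not a finding. For the other genes named it only describes the 4 libraries, and its share over all tested genes is not given here. Genes that were not called could show it too, as Qars and Tsr2 below did.

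The direction of change went with the level of expression. Among 2196 genes with a mean under 2 FPKM over the 4 libraries, 41.8% were called higher in EB and 20.6% lower. Among 1633 genes between 50 and 200 FPKM, 24.2% were higher and 41.9% lower. Above 200 FPKM, 15.6% of 475 genes were higher and 36.4% lower. These shares include the genes taken in through 1 stage alone, 2132 through EB and 1062 through ES, which had to differ. The part of such genes in the shares at each level was not tested. Genes higher in EB lay on all chromosomes, from 32.7% of the tested genes of chromosome 7 to 45.6% of those of chromosome 18.

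**Figure D1:**
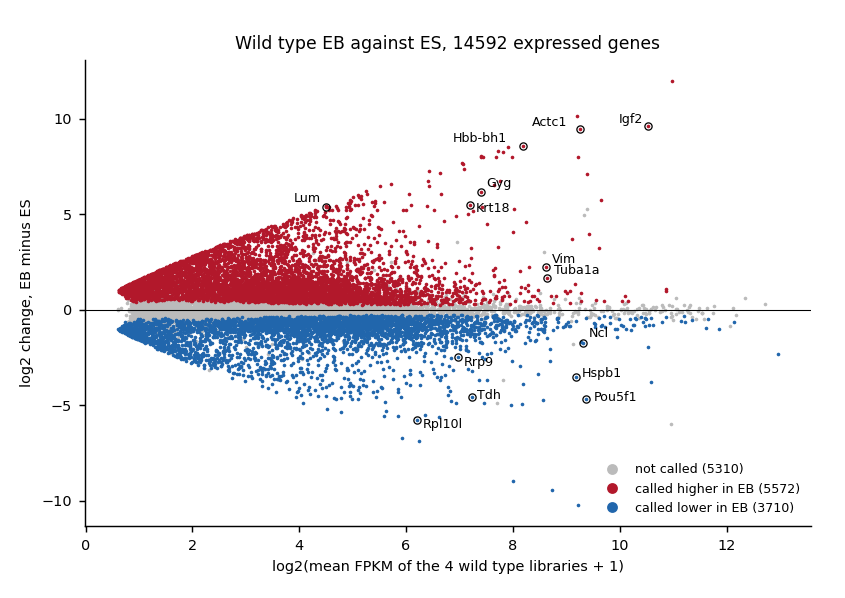
Change between the stages (log2, EB minus ES, vertical axis) against the level (log2 of the mean FPKM of the 4 libraries + 1, horizontal axis), 1 point a gene, red for the 5572 called higher in EB, blue for the 3710 called lower and grey for the rest. Above 200 FPKM the blue points outnumber the red, 36.4% against 15.6% of the genes, while the furthest rises among the labelled genes are Igf2 at 9.60 and Actc1 at 9.44.

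The cell types present were read from marker lists. All 17 cardiomyocyte markers of the list were higher in EB, 13 of them tested through the EB libraries alone, with summed levels of 5647 and 4470.2 FPKM in EB, against 19 and 17.5 FPKM in ES. The 16 endothelial markers summed to 543 and 381 FPKM in EB, against 58.4 and 56.0 FPKM in ES. All 15 fibroblast and feeder markers, tested or not, summed to 1020.1 and 1329 FPKM in EB, against 145 and 192 FPKM in ES. All 13 smooth muscle and pericyte markers, tested or not, summed to 748 and 537 FPKM in EB, against 85.6 and 59.7 FPKM in ES. Only 6 of the 16 macrophage and leukocyte markers passed the filter, with 4 called higher in EB and 2 lower. The 4 higher were tested through the EB libraries alone, and the 2 lower were the only ones expressed at both stages. The 15 of these markers with values, tested or not, summed to 24.9 and 29.2 FPKM in EB, against 66.9 and 54.5 FPKM in ES. Of the 9 tested markers of neural progenitors and neurons 3 were higher in EB and 4 lower. The 19 neural markers with values, tested or not, summed to 59.3 and 68.1 FPKM in EB, against 248 and 231 FPKM in ES. The 22 markers of naive and general pluripotency tested were lower in EB, with 456 and 699 FPKM in EB, against 7987 and 7584 FPKM in ES in sum. In these bulk samples, fewer cells of a type and less RNA per cell cannot be told apart, and the part of this cell mixture in the gene lists below was not tested.

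The machinery that makes ribosomes was lower in EB almost throughout. In the ribosome biogenesis list, 65 of 68 members fell and 0 rose (95.6% lower, against 25.4% of all tested genes), with a median log2 change of -1.25. The 3 that were not called were Rrp1 (0.36), Tsr2 (-0.27) and Ddx52 (-0.06), named after their values were seen. With quantile normalization Rrp1 was called higher (0.57) and Tsr2 (-0.54) and Ddx52 (-0.31) lower. Rrp1 was also called higher with scaling to the same total (0.47). Rrp9 (ENSMUSG00000041506.15, chr9:106475963-106485424 in mm10), which binds the U3 small nucleolar RNA, had 38.5 and 36.9 FPKM in EB, against 220.5 and 204 FPKM in ES. Both EB libraries lay far below both ES libraries, with a log2 change of -2.46 ± 0.11 (SE; adjusted p = 1.79e-05).

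Nucleolar proteins of high abundance moved the same way. Nucleolin, encoded by Ncl, had 295 and 296 FPKM in EB, against 983 and 978 FPKM in ES, a log2 change of -1.73 (adjusted p = 2.95e-05). Fibrillarin (Fbl), the methyltransferase of box C/D small nucleolar RNPs, had 203 and 187 FPKM in EB, against 453 and 419 FPKM in ES (log2 -1.16). Nucleophosmin (Npm1), the histone and ribosome chaperone of the nucleolus, had 1167 and 902 FPKM in EB, against 1872 and 1763 FPKM in ES (log2 -0.82). The stages did not overlap in any of these genes. The large RNA polymerase I subunits, which transcribe ribosomal RNA, fell as well, Polr1a with a log2 change of -1.58 and Polr1b with one of -2.06.

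The E-box CACGTG, the site that MYC-family factors are known to bind, was looked up in RefSeq promoters (250 bases before to 50 after each start, GRCm38.p6), on both strands at once since it is its own reverse complement. It was present in 13 of the 58 ribosome biogenesis promoters in the table (22.4%), in 11.8% of the promoters of tested genes and in 8.09% of all 27025 promoters. Such a share was not particular to this list. The vacuolar ATPase list, which mostly rose, had 28.6%, and the cytosolic aminoacyl-tRNA synthetases, which fell, had 26.7%. The promoter of Nop2, a methyltransferase of 28S ribosomal RNA, is shown because it carries such a motif in a gene that fell, and it was chosen after its values were seen. The 120 bases are chr6:125131766-125131885 on the plus strand, with the E-box in capitals beginning 60 bases before the start.
Nop2: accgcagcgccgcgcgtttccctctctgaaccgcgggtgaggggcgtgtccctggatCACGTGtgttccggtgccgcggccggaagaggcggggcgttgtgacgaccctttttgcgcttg
Nop2 had 34.8 and 37.6 FPKM in EB, against 129 and 105 FPKM in ES, a log2 change of -1.66 (adjusted p = 6.52e-05). Both EB libraries were below both ES libraries. The match describes these letters and not binding. Of the factors themselves, Myc had 15.2 and 17.0 FPKM in EB, against 37.7 and 39.0 FPKM in ES (log2 -1.20, adjusted p = 0.00213) and Mycn had 32.1 and 34.8 FPKM in EB, against 92.3 and 137 FPKM in ES (log2 -1.72, adjusted p = 0.00156). Both EB libraries were lower than both ES libraries for each of them.

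Translation and its supply lines were lower too. Among cytosolic aminoacyl-tRNA synthetases, which charge tRNAs with amino acids, 22 of 23 fell and 0 rose, with a median of -1.08; the exception was Qars (-0.23, not called). The alanine enzyme Aars had 38.7 and 44.4 FPKM in EB, against 129 and 156 FPKM in ES (log2 -1.75, adjusted p = 0.00014). Of 69 initiation and elongation factors, 40 fell and 6 rose. Eif4ebp1, a repressor of cap-dependent initiation, had 58.5 and 55.9 FPKM in EB, against 191 and 246 FPKM in ES (log2 -1.90). Eif1b went the other way, with 74.8 and 63.6 FPKM in EB, against 21.7 and 20.6 FPKM in ES (log2 1.66). Neither gene's stages overlapped.

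RNA polymerases I, II and III had 24 of 37 subunits lower and 3 higher (median -0.80). A pair of related subunits in this list moved apart. Polr3g, the RNA polymerase III subunit known from stem cells, had 20.3 and 15.0 FPKM in EB, against 60.9 and 61.4 FPKM in ES (log2 -1.75). Its paralogue Polr3gl had 13.1 and 12.4 FPKM in EB, against 3.75 and 6.96 FPKM in ES (log2 1.16, adjusted p = 0.00684). Polr3g was lower and Polr3gl higher in both EB libraries than in both ES libraries.

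Nuclear transport genes were mostly lower. Of 56 nucleoporins and transport receptors tested, 42 were lower in EB and 0 higher (median -0.66). Nup210, a membrane nucleoporin, had 4.32 and 4.07 FPKM in EB, against 18.6 and 15.6 FPKM in ES (log2 -1.79), and the channel protein gene Nup62 had 54.7 and 58.2 FPKM in EB, against 146 and 163 FPKM in ES (log2 -1.43). Both EB libraries were below both ES libraries in each. Spliceosome proteins had 31 of 56 members lower and 5 higher (2 higher without the EB replicate 1, the EB replicate 2 or the ES replicate 2; median -0.47), with the core U5 protein Prpf8 at 74.9 and 102 FPKM in EB, against 195 and 230.2 FPKM in ES (log2 -1.26). The chaperonin and prefoldin list, which folds actin and tubulin, had 12 of 16 lower and 1 higher, and the RNA exosome and decay list 22 of 42 lower and 3 higher.

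Proteasome genes had 20 of 36 lower and 2 higher with a median of -0.31. The number lower was 13 without the EB replicate 2, 11 without the ES replicate 1 and 13 without the ES replicate 2. Psmb10, a catalytic subunit of the immunoproteasome, had the steepest fall of the named members, with 15.8 and 11.3 FPKM in EB, against 64.6 and 58.3 FPKM in ES (log2 -2.12, adjusted p = 4.66e-05). Its stages did not overlap.

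Mitochondrial import genes fell more often than they rose. Of 40 such genes 20 fell and 6 rose (3 without the EB replicate 1 or the ES replicate 2), and Tomm40, the channel of the outer membrane, had 72.4 and 80.9 FPKM in EB, against 249 and 216 FPKM in ES (log2 -1.59). In the tricarboxylic acid cycle and pyruvate dehydrogenase list, 15 of 35 rose (42.9%, against 38.2% of all tested genes) and 12 fell (34.3%, against 25.4%), with a median of 0.08, and with 9 higher without the EB replicate 1 and 8 without the ES replicate 2. Idh2, the mitochondrial NADP-dependent isocitrate dehydrogenase, had 183 and 164 FPKM in EB, against 70.1 and 54.1 FPKM in ES (log2 1.48). The pyruvate dehydrogenase subunit Pdhb had 62.9 and 65.0 FPKM in EB, against 135 and 151 FPKM in ES (log2 -1.15). The ADP/ATP carriers moved apart: Slc25a4, the heart and muscle form, had 295 and 321 FPKM in EB, against 98.7 and 80.9 FPKM in ES, and Slc25a5 had 214 and 205 FPKM in EB, against 600.1 and 560.4 FPKM in ES. The log2 change was 1.77 for Slc25a4 and -1.46 for Slc25a5, with no overlap of the stages in either.

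Threonine breakdown and one-carbon metabolism were lower in EB. Tdh, the threonine dehydrogenase on which mouse ES cells are known to depend, had 7.62 and 15.6 FPKM in EB, against 299 and 273 FPKM in ES. Both EB libraries were far below both ES libraries, a log2 change of -4.58 ± 0.28 (SE; adjusted p = 2.89e-05). Gldc, the glycine decarboxylase of the glycine cleavage system, had 20.0 and 24.2 FPKM in EB, against 102 and 102 FPKM in ES (log2 -2.16). The mitochondrial serine hydroxymethyltransferase Shmt2 had 33.6 and 40.3 FPKM in EB, against 124 and 138 FPKM in ES (log2 -1.80). Over the list, 19 of 30 members fell and 2 rose (median -1.03 over the 29 expressed at both stages). The 2 that rose were Mthfd2l (1.86), a mitochondrial folate enzyme, and Ahcyl1 (1.02).

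Purine and pyrimidine synthesis genes were mostly lower. Of 33 genes 23 fell and 4 rose (median -0.79). Prps1, which makes phosphoribosyl pyrophosphate, had 21.0 and 23.6 FPKM in EB, against 139 and 168 FPKM in ES (log2 -2.72, adjusted p = 2.20e-05), and the purine enzyme gene Gart had 52.8 and 49.8 FPKM in EB, against 219 and 230.2 FPKM in ES (log2 -2.11). Adssl1, the muscle form of adenylosuccinate synthetase, rose to 41.2 and 30.5 FPKM in EB, against 1.46 and 1.28 FPKM in ES (log2 3.94). Each gene's EB libraries lay on 1 side of its ES libraries.

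Amino acid enzymes fell more often than they rose. In the polyamine, proline, arginine and glutamine list 17 of 29 fell and 5 rose (median -0.84). Ass1, which makes argininosuccinate, had 10.3 and 17.0 FPKM in EB, against 168 and 108 FPKM in ES (log2 -3.25). Bcat1, the cytosolic branched-chain aminotransferase, had 21.9 and 23.7 FPKM in EB, against 206 and 217 FPKM in ES (log2 -3.16). Odc1, the first enzyme of polyamine synthesis, had 91.0 and 76.6 FPKM in EB, against 363 and 327 FPKM in ES (log2 -2.03). Sat1, which acetylates spermidine and spermine, had 93.2 and 83.3 FPKM in EB, against 32.4 and 25.4 FPKM in ES (log2 1.59) and the ornithine aminotransferase Oat had 55.7 and 49.9 FPKM in EB, against 11.3 and 12.1 FPKM in ES (log2 2.08). Sat1 and Oat were higher and the others lower in EB, with no overlap of the stages in any of the 5.

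Genes of glycogen and fat handling rose more often than they fell. Glycogenin, the protein primer of glycogen encoded by Gyg, had 383 and 282 FPKM in EB, against 4.52 and 2.72 FPKM in ES, a 91.9-fold ratio of means and a log2 change of 6.19 ± 0.29 (SE; adjusted p = 1.79e-05). The EB libraries held the highest levels by far. Ppp1r3c, a glycogen-targeting subunit of protein phosphatase 1, had 16.4 and 12.3 FPKM in EB, against 0.278 and 0.236 FPKM in ES (log2 3.60). Among the 16 glycogen and galactose genes expressed at both stages 9 rose and 1 fell. Mitochondrial fatty acid oxidation had 14 of 25 such genes higher and 4 lower. Its muscle carnitine palmitoyltransferase Cpt1b had 11.6 and 8.08 FPKM in EB, against 1.73 and 0.883 FPKM in ES (log2 2.24), while the medium-chain dehydrogenase Acadm had 29.6 and 27.6 FPKM in EB, against 84.2 and 71.8 FPKM in ES (log2 -1.41). Beside these stand the cardiomyocyte markers given above, whose part in the rises was not tested.

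Genome maintenance lists had more members lower than higher, where all tested genes had 25.4% lower and 38.2% higher. The share lower was 61.1% for recombination and Fanconi anaemia and 40.0% for mismatch and excision repair. It was 45.0% for telomere maintenance and 42.3% for cohesin and condensin. The homologous recombination and Fanconi anaemia list had 22 of 36 lower and 2 higher (median -0.63). Mismatch and excision repair had 16 of 40 lower and 7 higher (5 higher without the EB replicate 1, 3 without the EB replicate 2 or the ES replicate 1, and 4 without the ES replicate 2). Telomere maintenance had 9 of 20 lower and 5 higher (2 higher without either EB replicate and 3 without the ES replicate 2), and cohesin and condensin 11 of 26 lower and 3 higher (1 higher without the EB replicate 2). Brca2, a central protein of recombination repair, had 4.71 and 5.08 FPKM in EB, against 21.0 and 19.6 FPKM in ES (log2 -1.85). Msh6, a mismatch recognition protein, had 29.0 and 36.1 FPKM in EB, against 179 and 173 FPKM in ES (log2 -2.41), and Msh3, which recognises larger loops, was not called (log2 -0.27). Terf1, a shelterin protein that coats telomeres, had 33.2 and 31.6 FPKM in EB, against 117 and 126 FPKM in ES (log2 -1.87). Terf2, another shelterin protein, had 18.3 and 19.7 FPKM in EB, against 16.1 and 16.3 FPKM in ES and was not called (log2 0.22, -0.03 with quantile normalization).

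Genes that restrain retroelements were mostly lower. In that list 14 of 18 were lower and 2 higher (median -0.98), 3 of them tested through the ES libraries alone. Trim28, the KAP1 corepressor of KRAB zinc finger proteins, had 296 and 281 FPKM in EB, against 958 and 934 FPKM in ES (log2 -1.71, adjusted p = 2.27e-05). Morc1, which silences transposons in the germline, had 0.367 and 1.13 FPKM in EB, against 42.1 and 34.4 FPKM in ES (log2 -4.52). Zfp57, the zinc finger protein that protects imprinted methylation, had 16.3 and 18.4 FPKM in EB, against 198 and 188 FPKM in ES (log2 -3.40). In each case the EB libraries were below the ES libraries. The rises were Apobec2 (3.05), a muscle member of the deaminase family, and Pphln1 (1.59), a subunit of the HUSH silencing complex.

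**Figure D2:**
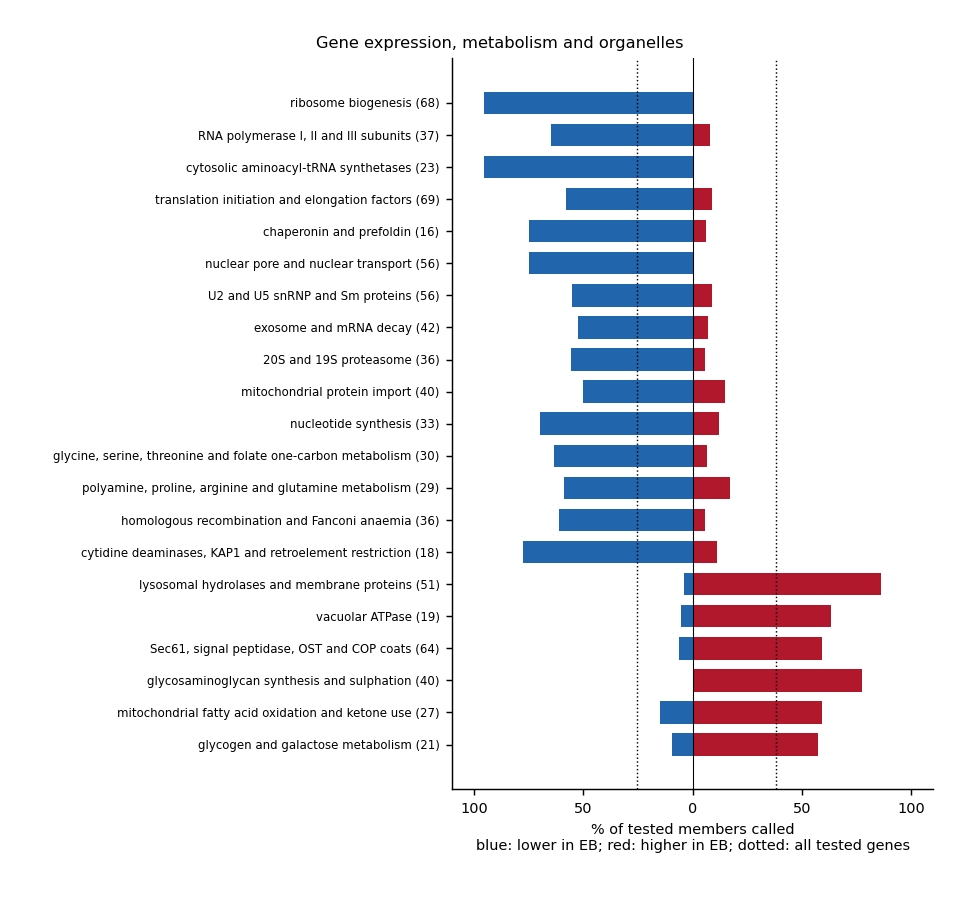
Share of the tested members called lower in EB (blue, to the left) or higher in EB (red, to the right) in 21 lists of expression machinery, metabolism and organelles, with the number tested in brackets and dotted lines at the shares of all tested genes, 25.4% lower and 38.2% higher. Ribosome biogenesis at the top has 95.6% lower and 0% higher, and the lysosome list has 86.3% higher and 3.92% lower.

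Lysosomal genes rose. Of 45 lysosomal hydrolases and membrane proteins expressed at both stages 38 were higher in EB and 2 lower (median 1.02), and 6 more entered through the EB libraries alone. Under quantile normalization the whole list had 37 higher and 4 lower. Cathepsin L (Ctsl), a protease, had 239 and 197 FPKM in EB, against 34.8 and 36.5 FPKM in ES (log2 2.57). Lamp2, a major glycoprotein of the lysosomal membrane, had 72.6 and 72.3 FPKM in EB, against 5.62 and 6.60 FPKM in ES (log2 3.37, adjusted p = 1.47e-05), and the acid lipase gene Lipa had 24.7 and 17.6 FPKM in EB, against 1.80 and 1.70 FPKM in ES (log2 2.99). The EB libraries were above the ES libraries in all 3 genes. The 2 falls were Manba (-2.68), a mannosidase, and Cd68 (-2.60), a glycoprotein also used as a macrophage marker.

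The same E-box letters, CACGTG, stood in 14 of 41 lysosome promoters (34.1%), against 11.8% of tested genes. The longer TCACGTGA, which contains it, was in 5 of them (12.2%), against 2.22% of tested genes. TFEB and its relatives are known to bind such sites. The promoter of Lamp1, a second membrane glycoprotein, is shown because it holds 4 copies in a gene that rose, and it was chosen after its values were seen. These are chr8:13159066-13159185 in GRCm38.p6, plus strand, with the CACGTG copies in capitals at 61, 45, 28 and 15 bases before the start.
Lamp1: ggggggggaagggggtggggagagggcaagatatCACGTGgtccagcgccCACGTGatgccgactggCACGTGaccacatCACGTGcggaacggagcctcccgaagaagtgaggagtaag
Lamp1 had 159 and 145 FPKM in EB, against 107 and 101 FPKM in ES, a log2 change of 0.54 (adjusted p = 0.00404). The stages did not overlap. Tfeb itself had 4.96 and 9.32 FPKM in EB, against 37.9 and 42.9 FPKM in ES, lower in EB (log2 -2.40, adjusted p = 0.000225). The same 6 letters stand in promoters of the Nop2 gene, which fell, and of the Lamp1 gene, which rose. Both promoters were picked after their values were seen. Whether MYC, TFEB or related factors had a part in either change was not tested.

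Genes of the acidifying pump and the early secretory path rose more often than they fell. Of 17 vacuolar ATPase genes expressed at both stages 11 rose and 0 fell, with its accessory subunit Atp6ap1 at 69.5 and 66.3 FPKM in EB, against 19.8 and 16.3 FPKM in ES (log2 1.86). Translocon, signal peptidase, glycosylation and coat proteins had 38 of 64 higher and 4 lower (median 0.46). Kdelr3, a retrieval receptor for endoplasmic reticulum proteins, had 21.2 and 19 FPKM in EB, against 5.17 and 4.20 FPKM in ES (log2 1.90). Autophagy genes had 20 of 41 tested members higher (48.8%) and 11 lower (26.8%), against 38.2% and 25.4% of all tested genes. Gabarap, an ATG8 protein of the autophagosome, had 170.4 and 132 FPKM in EB, against 30.6 and 31.9 FPKM in ES (log2 2.23), whereas the initiating kinase gene Ulk1 had 19.7 and 21.7 FPKM in EB, against 73.0 and 74.6 FPKM in ES (log2 -1.79). None of these named genes had overlapping stages.

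Folding genes of the endoplasmic reticulum had 16 of 38 tested members higher (42.1%) and 4 lower (10.5%), against 38.2% and 25.4% of all tested genes. Of the 36 expressed at both stages 16 rose and 3 fell. Trib3, a pseudokinase induced by stress, was among the falls, with 3.02 and 2.42 FPKM in EB, against 18.2 and 24.5 FPKM in ES (log2 -2.58), and the asparagine synthetase Asns of the amino acid list had 38.1 and 29.1 FPKM in EB, against 176 and 212 FPKM in ES (log2 -2.50). Sesn2, a leucine sensor, had 15.0 and 16.6 FPKM in EB, against 48.2 and 62.4 FPKM in ES (log2 -1.73), while its paralogue Sesn3 had 32.6 and 47.0 FPKM in EB, against 7.28 and 8.16 FPKM in ES (log2 2.21). The stages were apart in each. Hspa5, the main chaperone of the endoplasmic reticulum, was not called, with 299 and 322 FPKM in EB, against 291 and 148 FPKM in ES and 1 ES library at the EB level.

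Extracellular matrix genes rose, many of them from near 0. Collagen chains had 27 of 29 tested members higher and 1 lower, out of 44 in the table, but 21 of these entered through the EB libraries alone. All 6 chains expressed at both stages rose. Col3a1, of type III collagen, had 349 and 492 FPKM in EB, against 0.249 and 0.392 FPKM in ES (log2 8.30, adjusted p = 6.94e-05). Col4a2, a chain of basement membrane collagen, had 63.7 and 66.7 FPKM in EB, against 4.82 and 1.07 FPKM in ES (log2 4.25). The collagen chaperone Serpinh1 had 494 and 514 FPKM in EB, against 13.2 and 11.3 FPKM in ES (log2 5.26), and of the 17 collagen-modifying enzymes expressed at both stages 15 rose and 1 fell. Both EB libraries were above both ES libraries in these genes.

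Proteoglycans and the sugars they carry rose with the collagens. Lumican (ENSMUSG00000036446.5, chr10:97565128-97572703 in mm10), a small leucine-rich proteoglycan encoded by Lum, had 40.3 and 45.8 FPKM in EB, against 0.0832 and 0 FPKM in ES (log2 5.40). The hyaluronan link protein gene Hapln1 had 27.2 and 28.0 FPKM in EB, against 0 and 0.00888 FPKM in ES (log2 4.83), and glypican 3 (Gpc3), a membrane heparan sulphate carrier, had 361 and 339 FPKM in EB, against 12.2 and 17.2 FPKM in ES (log2 4.50). ES libraries were at or near 0 for Lum and Hapln1 and well above it for Gpc3. Of 25 glycosaminoglycan enzymes expressed at both stages 18 rose and 0 fell (median 1.17). Has2, the hyaluronan synthase needed for heart cushions, had 41.5 and 34.4 FPKM in EB, against 0.0229 and 0.134 FPKM in ES (log2 5.17). The fibroblast and feeder markers share genes with these lists, and their summed levels are given above.

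The laminin, nidogen and perlecan list of the basement membrane had 8 of 15 tested members higher (53.3%) and 4 lower (26.7%). All tested genes had 38.2% and 25.4%, and 4 of the 15 were tested through the EB libraries alone. Over those expressed at both stages 4 of 11 were higher and 4 lower, near the shares of all genes expressed in all 4 libraries (32.7% and 26.1%). Nid2, a linker of laminin and collagen, had 58.2 and 66.5 FPKM in EB, against 159 and 176 FPKM in ES (log2 -1.41), and the laminin chain Lamc1 had 42.7 and 58.3 FPKM in EB, against 79.3 and 88.6 FPKM in ES (log2 -0.74). Lamb2, another laminin chain, had 16.4 and 29.4 FPKM in EB, against 6.55 and 8.16 FPKM in ES (log2 1.47). Each had its stages apart. Ltbp4, a latent TGF-beta binding protein of elastic fibres, fell among the matrix genes, with 8.12 and 14.2 FPKM in EB, against 136 and 108 FPKM in ES (log2 -3.37), and so did osteopontin (Spp1), with 5.43 and 9.09 FPKM in EB, against 206 and 266 FPKM in ES (log2 -4.87).

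Integrins and tight junction genes rose more often than they fell. Of 11 integrin subunits expressed at both stages 7 rose and 1 fell. Itgb1, the most widely shared beta subunit, had 161 and 169 FPKM in EB, against 37.8 and 31.5 FPKM in ES (log2 2.22), and Itgb7, known from leukocytes, had 1.58 and 1.68 FPKM in EB, against 26.7 and 27.3 FPKM in ES (log2 -3.41). Of 19 tight junction genes tested 13 were higher (68.4%) and 2 lower (10.5%), against 38.2% and 25.4% of all tested genes. Among the 14 expressed at both stages 8 rose and 2 fell. Cldn6 had 192 and 163 FPKM in EB, against 32.6 and 29.7 FPKM in ES (log2 2.47). Jam2 had 1.70 and 3.22 FPKM in EB, against 32.6 and 30.5 FPKM in ES (log2 -3.27). In gap junctions, 5 of 9 connexins tested were higher and 4 lower. Gja1 had 69.6 and 72.9 FPKM in EB, against 46.9 and 45.8 FPKM in ES (log2 0.61). The stages were apart in all 5.

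Axon guidance receptors and their ligands, which also steer vessels and neural crest, rose more often than they fell. Nrp1, the neuropilin that binds semaphorins and VEGF, had 77.2 and 71.9 FPKM in EB, against 0.183 and 0.0866 FPKM in ES (log2 6.06). Its partner Plxnd1 had 71.6 and 46.2 FPKM in EB, against 0.302 and 0.361 FPKM in ES (log2 5.46), and the transmembrane ephrin gene Efnb2 had 58.2 and 61.5 FPKM in EB, against 1.98 and 2.14 FPKM in ES (log2 4.32). Both EB libraries exceeded both ES libraries. Among Eph receptors and ephrins expressed at both stages 7 of 11 rose and 1 fell, the fall being Epha2, with 9.17 and 13.9 FPKM in EB, against 57.7 and 49.5 FPKM in ES (log2 -2.15). Semaphorins, plexins and neuropilins had 21 of 31 tested members higher (67.7%) and 5 lower (16.1%), against 38.2% and 25.4% of all tested genes. Of these 31, 15 entered through the EB libraries alone, and of the 13 expressed at both stages 6 rose and 3 fell. Endothelial markers moved with these genes, and their part was not tested.

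Growth factor pathways held genes that rose and genes that fell. Of 44 Wnt genes tested 29 were higher (65.9%) and 8 lower (18.2%), against 38.2% and 25.4% of all tested genes. Among the 22 expressed at both stages 12 rose and 4 fell. The receptor gene Fzd2 had 63.2 and 76.3 FPKM in EB, against 2.22 and 3.29 FPKM in ES (log2 4.24) and its relative Fzd5 had 5.36 and 8.12 FPKM in EB, against 50.4 and 59.3 FPKM in ES (log2 -2.87). Axin2, a common readout of canonical signalling, had 9.48 and 10.9 FPKM in EB, against 8.21 and 8.22 FPKM in ES and was not called (log2 0.28, -0.14 with quantile normalization). In the Notch list, the target gene Hey1 had 64.7 and 42.9 FPKM in EB, against 1.90 and 1.76 FPKM in ES (log2 4.24), while the receptor Notch1 had 13.3 and 13.6 FPKM in EB, against 10.6 and 16.5 FPKM in ES and was not called (log2 0.02, -0.29 with quantile normalization). Rbpj, the DNA-binding partner of Notch, had 25.8 and 27.5 FPKM in EB, against 101 and 86.8 FPKM in ES (log2 -1.77). Fzd2 and Hey1 were higher, and Fzd5 and Rbpj lower, in both EB libraries than in both ES libraries.

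In the TGF-beta and activin list 25 of 39 tested members were higher (64.1%) and 10 lower (25.6%), against 38.2% and 25.4% of all tested genes. Of the 24 expressed at both stages 15 rose and 6 fell. Tgfb2 had 37.3 and 37.2 FPKM in EB, against 0.0933 and 0.212 FPKM in ES (log2 5.05), and Gdf3, a relative of nodal, had 0.701 and 1.06 FPKM in EB, against 42.2 and 42.4 FPKM in ES (log2 -4.53). Inhbb, the activin B subunit, had 0.159 and 0.347 FPKM in EB, against 27.6 and 29.6 FPKM in ES (log2 -4.57). The feedback inhibitor Socs3, a target of LIF signalling, had 5.99 and 8.10 FPKM in EB, against 89.4 and 85.7 FPKM in ES (log2 -3.47), and the LIF receptor Lifr had 7.42 and 13.4 FPKM in EB, against 12.4 and 14.1 FPKM in ES and was not called (log2 -0.37). The stages overlapped for Lifr and were apart for the others.

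Insulin-like growth factor genes held the largest rise among tested loci of at least 300 bases. Igf2 (ENSMUSG00000048583.16, chr7:142650766-142666816 in mm10), the imprinted fetal growth factor, had 2923 and 2982 FPKM in EB, against 2.22 and 3.50 FPKM in ES, a log2 change of 9.60 ± 0.27 (SE; adjusted p = 7.41e-06). Its binding proteins Igfbp5 and Igfbp4 had 259 and 267 FPKM in EB, against 0.254 and 0.277 FPKM in ES, and 192 and 203 FPKM in EB, against 1.90 and 2.02 FPKM in ES. ES libraries were low and EB libraries close to each other in all 3. Of 19 list members expressed at both stages 14 rose and 1 fell. Pdgfra, the receptor of mesenchymal cells, had 51.4 and 47.4 FPKM in EB, against 0.181 and 0.111 FPKM in ES (log2 5.46), while its ligand Pdgfa had 16.8 and 18.1 FPKM in EB, against 42.4 and 37.2 FPKM in ES (log2 -1.14). The chemokine Cxcl12 and its receptor Cxcr4 had 52.7 and 47.5 FPKM in EB, against 0.226 and 0.295 FPKM in ES, and 20.2 and 17.5 FPKM in EB, against 0.569 and 0.648 FPKM in ES. Retinoid genes included Rbp4, the retinol carrier, with 153 and 108 FPKM in EB, against 1.18 and 0.682 FPKM in ES (log2 6.08), and the receptor Rarg, with 12.7 and 12.5 FPKM in EB, against 91.7 and 78.7 FPKM in ES (log2 -2.66).

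**Figure D3:**
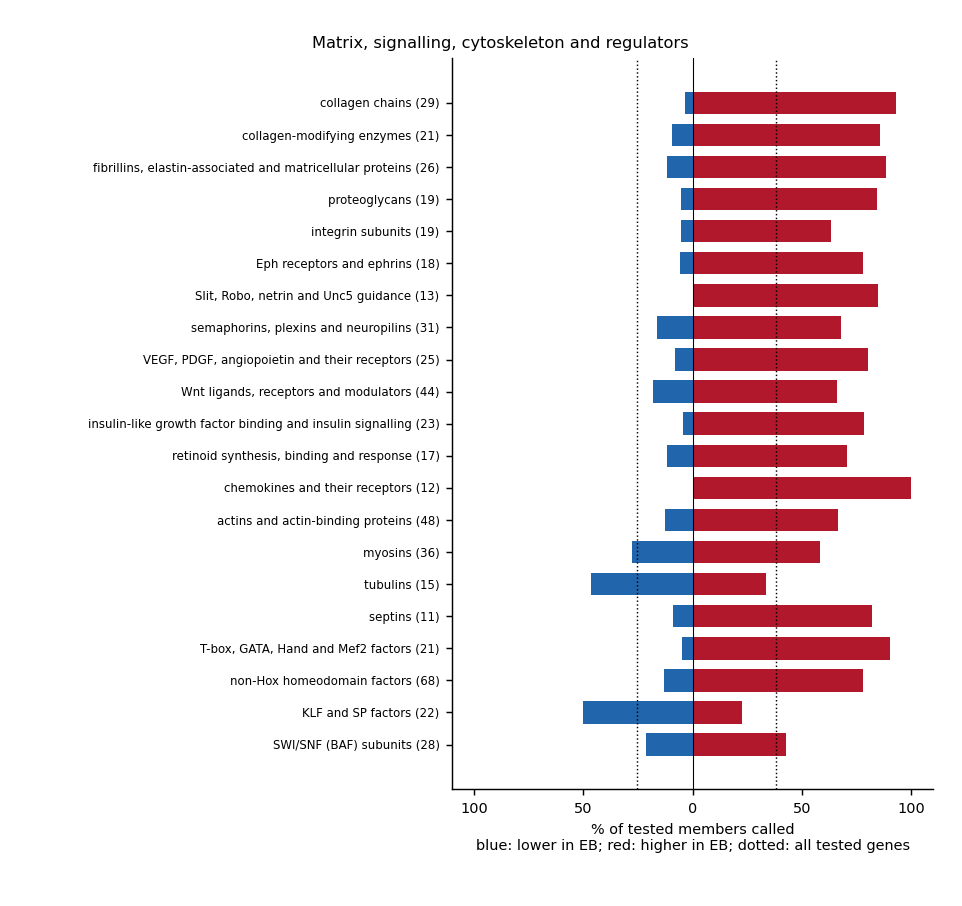
Share of the tested members called lower in EB (blue, to the left) or higher in EB (red, to the right) in 21 lists of matrix, signalling, cytoskeleton and regulators, with the number tested in brackets and dotted lines at 25.4% lower and 38.2% higher, the shares of all tested genes. The KLF and SP factors have 50.0% lower and 22.7% higher, and the tubulins 46.7% lower and 33.3% higher; many red bars hold members that entered through the EB libraries alone.

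Actin genes rose more often than they fell. Of 41 actins and actin-binding proteins expressed at both stages 26 rose and 5 fell (median 0.98). Tropomyosin 1 (Tpm1), an actin filament protein of muscle, had 1145 and 909.7 FPKM in EB, against 70.2 and 86.6 FPKM in ES (log2 3.69), and Tpm3 had 275 and 283 FPKM in EB, against 336 and 305 FPKM in ES and was not called (log2 -0.20). The actin crosslinker Actn4 had 144 and 149 FPKM in EB, against 335 and 341 FPKM in ES (log2 -1.20). Tpm1 was higher and Actn4 lower in both EB libraries, and the Tpm3 values of the stages were close. Myosins had 21 of 36 tested members higher (58.3%) and 10 lower (27.8%), against 38.2% and 25.4% of all tested genes. Of the 23 expressed at both stages 11 rose and 7 fell. The embryonic non-muscle heavy chain Myh10 had 80.8 and 90.9 FPKM in EB, against 18.7 and 23.9 FPKM in ES (log2 1.97). The skeletal light chain Mylpf had 13.3 and 22.6 FPKM in EB, against 116 and 207 FPKM in ES (log2 -3.09).

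The serum response factor site, the CArG box, was looked up in the same promoters on both strands. It was found in 7 of 41 promoters of the actin list (17.1%), 6 of 32 of the myosins (18.8%) and 3 of 17 cardiomyocyte markers (17.6%), against 1.61% of tested genes and 1.81% of all promoters. Both muscle promoters below are shown because they carry it in genes that rose, with the box in capitals beginning 47 and 61 bases before the start. Actc1 is chr2:114052858-114052977 and Myl7 chr11:5898779-5898898 in GRCm38.p6, both on the minus strand and written 5′ to 3′ along the gene.
Actc1: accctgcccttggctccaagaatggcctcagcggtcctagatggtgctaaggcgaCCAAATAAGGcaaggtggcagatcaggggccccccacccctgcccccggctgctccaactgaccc
Myl7: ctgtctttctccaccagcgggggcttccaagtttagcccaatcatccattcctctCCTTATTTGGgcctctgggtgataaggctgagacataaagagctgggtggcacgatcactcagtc
Cardiac actin, Actc1, had 1415 and 1021 FPKM in EB, against 0.749 and 0.715 FPKM in ES (log2 9.44). The atrial light chain Myl7 had 1473 and 907 FPKM in EB, against 5.16 and 2.44 FPKM in ES (log2 7.97). Both genes were low in both ES libraries and far higher in both EB libraries. These stretches describe letters, not binding.

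Tubulins fell more often than they rose, 7 against 5 of 15. Tuba4a had 14.4 and 13.9 FPKM in EB, against 175 and 172 FPKM in ES (log2 -3.53) and Tubb4b had 185 and 154 FPKM in EB, against 575 and 458 FPKM in ES (log2 -1.60). Alpha-tubulin genes are near-identical in sequence, so the split of reads between Tuba1a and Tuba1b is uncertain. Keratins of simple epithelia rose: Krt8 had 357 and 308 FPKM in EB, against 11 and 4.48 FPKM in ES (log2 5.36) and its partner Krt18 had 303 and 269 FPKM in EB, against 6.31 and 4.77 FPKM in ES (log2 5.46). Krt42 and Krt17 fell, with 0.112 and 0.507 FPKM in EB, against 55.0 and 50.0 FPKM in ES, and 0.189 and 0.115 FPKM in EB, against 24 and 19 FPKM in ES. Of 13 intermediate filament genes other than keratins 3 rose and 6 fell (median -0.25). Vimentin, the mesenchymal filament encoded by Vim, had 694 and 602 FPKM in EB, against 149 and 121 FPKM in ES (log2 2.26), and Ina, a neuronal filament, had 2.05 and 3.35 FPKM in EB, against 36.2 and 39.9 FPKM in ES (log2 -3.42). The stages were apart in all of these genes. Sept1 was the single called fall among 11 septins, the GTP-binding ring proteins, with 9.55 and 7.72 FPKM in EB, against 225 and 193 FPKM in ES (log2 -4.45), against 9 rises.

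SWI/SNF chromatin remodelling genes had 12 of 28 higher (42.9%) and 6 lower (21.4%), near the 38.2% and 25.4% of all tested genes. The ATPase Smarca4 had 73.3 and 73.3 FPKM in EB, against 62.8 and 76.8 FPKM in ES and was not called (log2 0.08), while its alternative Smarca2 had 21.7 and 21.5 FPKM in EB, against 0.427 and 0.646 FPKM in ES (log2 3.88, adjusted p = 2.95e-05). Smarcd3, the BAF60 subunit of heart and muscle, had 38.3 and 28.6 FPKM in EB, against 6.51 and 9.82 FPKM in ES (log2 1.92), and Smarcd1 had 36.1 and 34.2 FPKM in EB, against 90.4 and 91.4 FPKM in ES (log2 -1.35). Smarcc2 had 34.5 and 47.7 FPKM in EB, against 8.45 and 8.59 FPKM in ES (log2 2.13), and Smarcc1 had 75.4 and 78.1 FPKM in EB, against 83.7 and 73.0 FPKM in ES and was not called (log2 -0.03, 0.13 with quantile normalization). Dpf3, the subunit known from heart and muscle, had 9.82 and 9.15 FPKM in EB, against 0.149 and 0.138 FPKM in ES (log2 3.20), and the neural progenitor subunit Actl6a had 64.7 and 58.4 FPKM in EB, against 141 and 129 FPKM in ES (log2 -1.12). Actl6b, its neuronal counterpart, was listed at 0 in the 4 libraries.

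In the NuRD, CHD, ISWI and INO80 list 12 of 44 rose (27.3%) and 13 fell (29.5%), against 38.2% and 25.4% of all tested genes and 32.7% and 26.1% of those expressed in all 4 libraries. The remodeller Chd3 had 60.1 and 99.8 FPKM in EB, against 9.83 and 12.1 FPKM in ES (log2 2.72), and the ISWI ATPase Smarca1 had 19.4 and 17.6 FPKM in EB, against 1.81 and 2.53 FPKM in ES (log2 2.63). Hells, a remodeller needed for DNA methylation, had 34.1 and 33.0 FPKM in EB, against 118 and 123 FPKM in ES (log2 -1.82). Lysine methyltransferases and demethylases had 25 of 60 lower and 15 higher. Smyd1, a methyltransferase of heart and skeletal muscle, had 47.0 and 34.4 FPKM in EB, against 1.68 and 1.51 FPKM in ES (log2 3.99), and Dpy30, a shared subunit of H3K4 methyltransferases, had 49.0 and 42.6 FPKM in EB, against 162 and 139.8 FPKM in ES (log2 -1.70). The acetyltransferase gene Kat6b had 9.33 and 8.69 FPKM in EB, against 80.5 and 87.6 FPKM in ES (log2 -3.09). Stages were apart in these genes.

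Transcription factor families differed in direction. Of 68 non-Hox homeodomain factors tested 53 were higher and 9 lower, 41 of them tested through the EB libraries alone; of the 18 expressed at both stages 12 rose and 2 fell. Meis2, a cofactor of Hox proteins, had 76.0 and 93.3 FPKM in EB, against 1.14 and 1.46 FPKM in ES (log2 5.22), and Gbx2 had 1.78 and 0.985 FPKM in EB, against 53.5 and 66.5 FPKM in ES (log2 -4.69). Hand2, a regulator of heart and limb, had 70.4 and 78.3 FPKM in EB, against 0.0218 and 0.0231 FPKM in ES (log2 6.20). The KLF and SP list had 11 of 22 lower and 5 higher (3 without either ES replicate); Klf9 had 3.51 and 7.13 FPKM in EB, against 50.1 and 53.7 FPKM in ES (log2 -3.13) and Klf6 had 38.6 and 45.8 FPKM in EB, against 11 and 10.5 FPKM in ES (log2 1.87). Id2, an inhibitor of bHLH factors, had 138 and 149 FPKM in EB, against 4.94 and 7.05 FPKM in ES (log2 4.38), and the ETS factors Ets1 and Etv4 had 38.5 and 46.7 FPKM in EB, against 0.687 and 0.348 FPKM in ES, and 8.57 and 12.3 FPKM in EB, against 77.3 and 72.2 FPKM in ES. Both EB libraries lay on 1 side of both ES libraries in each gene.

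The directions of related genes were counted over 53 pairs, chosen with earlier results of these data known. Both members were tested in 51 pairs. In 14 pairs the members were called in opposite directions, in 9 both rose, in 4 both fell, in 23 a single member was called and in 1 neither was. Of all tested genes 38.2% were called higher and 25.4% lower, and the count is a description of these pairs. The opposite pairs included hexokinases, with Hk1 at 44.1 and 44.6 FPKM in EB, against 22 and 23.1 FPKM in ES (log2 0.95) and Hk2 at 20.8 and 14.4 FPKM in EB, against 55.5 and 57.9 FPKM in ES (log2 -1.66). The splicing repressors Ptbp2 and Ptbp1 moved apart, with 34.7 and 25.9 FPKM in EB, against 9.68 and 7.68 FPKM in ES for Ptbp2 (log2 1.69), and 237 and 241 FPKM in EB, against 438 and 418 FPKM in ES for Ptbp1 (log2 -0.84). In each pair the EB values of 1 member were above its ES values and those of the other below.

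Further opposite pairs concerned signalling and redox proteins. Spry1 had 22.2 and 27.9 FPKM in EB, against 7.46 and 8.13 FPKM in ES (log2 1.56), and Spry4, a fellow inhibitor of receptor kinase signalling, had 5.67 and 6.27 FPKM in EB, against 34.4 and 38.1 FPKM in ES (log2 -2.42). Gpx8, a peroxidase of the endoplasmic reticulum, had 33.7 and 33.7 FPKM in EB, against 1.43 and 1.65 FPKM in ES (log2 3.77), and Gpx4, which protects membrane lipids, had 234 and 230.0 FPKM in EB, against 362 and 368 FPKM in ES (log2 -0.65). The histone deacetylases Hdac5 and Hdac1 had 67.8 and 95.5 FPKM in EB, against 28.2 and 31.4 FPKM in ES, and 109 and 111 FPKM in EB, against 165 and 162 FPKM in ES. N-cadherin (Cdh2) had 48.8 and 51.2 FPKM in EB, against 0.970 and 1.06 FPKM in ES (log2 4.66) and E-cadherin (Cdh1) had 64.6 and 62.8 FPKM in EB, against 132 and 121 FPKM in ES (log2 -0.98), which left E-cadherin the higher of both in EB by FPKM. Other opposite pairs were Smarcd3 and Smarcd1, Tuba1a and Tuba1b, Tgfb2 and Lefty1, Klf6 and Klf2, Nr2f2 and Nr5a2, and Mta1 and Mta3. The Lefty1 log2 change was not called without the EB replicate 1 (-1.96) or without the ES replicate 2 (-2.04), and the Mta1 log2 change not without the EB replicate 1 (0.64) or without the ES replicate 1 (0.56).

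**Figure D4:**
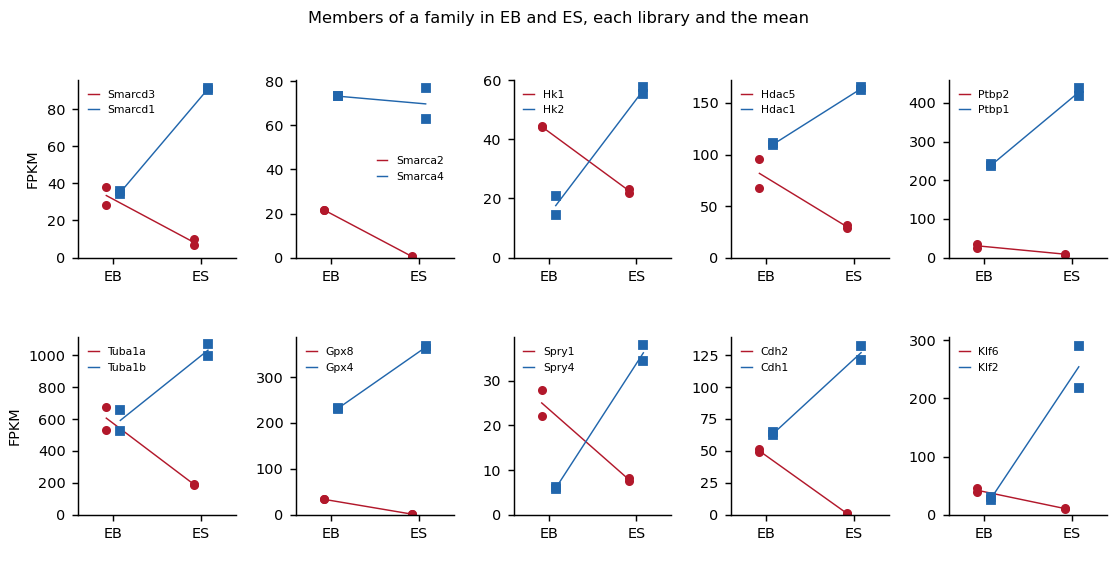
FPKM (vertical axis) of both members of 10 pairs in each EB library (left) and ES library (right), with lines joining the stage means, red circles for the member that was higher in EB and blue squares for the other. Smarca4 stayed near 73.3 and 73.3 FPKM in EB and 62.8 and 76.8 FPKM in ES while Smarca2 differed, and the lines of the other 9 pairs slope in opposite directions.

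Some genes were read at 1 stage and hardly at the other. At least 1 FPKM in both EB libraries and under 0.1 FPKM in both ES libraries was found for 479 genes, 424 of them named genes, against 114 in the opposite direction, 50 of them named. With at least 10 FPKM the numbers were 61 for EB and 6 for ES. Twist2, a bHLH factor of mesenchyme, had 31.6 and 43.0 FPKM in EB, against 0 and 0 FPKM in ES. The endothelial cadherin gene Cdh5 had 43.0 and 26.0 FPKM in EB, against 0.0488 and 0.0130 FPKM in ES, and the sodium-calcium exchanger of heart, Slc8a1, had 71.3 and 53.0 FPKM in EB, against 0.0348 and 0.0369 FPKM in ES. ES libraries were at or near 0 and the EB libraries far above in these 3 genes. These counts are a description of levels.

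Histone marks were set beside the RNA changes for named genes, with 1 library a stage and mark and so no test. The deposited values are a signal per gene, and step sizes differ between libraries (0.04 in EB and 0.0267 in ES for H3K27me3). H3K4me3, a mark of active promoters, had a median log2 ratio of EB over ES of 0.78 in 3158 genes whose RNA was called higher by 2-fold or more, of -0.46 in 1383 called lower by 2-fold or more and of 0.18 in the other 6609 with a value. In the first class 13% of genes had less H3K4me3 in EB than in ES, in the second 74.3%. H3K27me3, laid down by Polycomb, had median ratios of -0.41, 0.72 and 0.06 in the same order, and was lower in EB in 68.7%, 16.8% and 46.6% of the genes. With loci under 10 kb only, the H3K27me3 median of the first class was 0.10 and not below 0. That of the other genes rose as well, to 0.29, so the first class stayed below them.

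**Figure D5:**
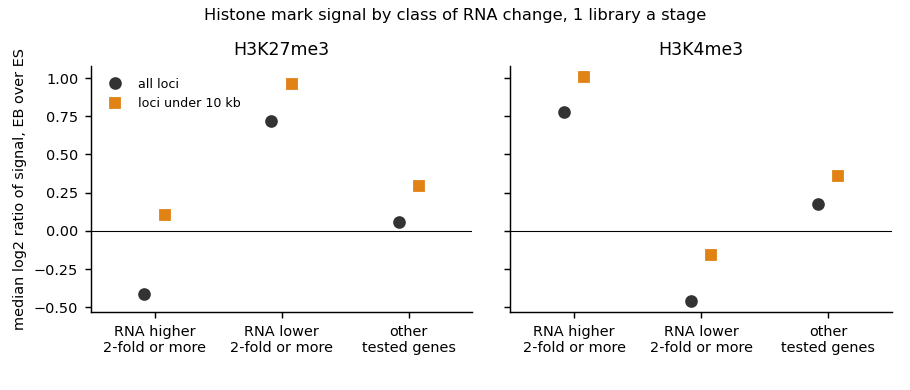
Median log2 ratio of signal, EB over ES (vertical axis), for H3K27me3 (left) and H3K4me3 (right) in 3 classes of RNA change, over all loci (black circles) and over loci under 10 kb (orange squares). H3K4me3 is above 0 where RNA was higher (0.78 over all loci) and below 0 where it was lower (-0.46), and H3K27me3 crosses 0 in the first class when long loci are left out (-0.41 against 0.10). The other genes also move up for H3K27me3 (0.06 against 0.29) and stay above the first class.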

How the data were processed

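RNA-seq covered 4 wild type libraries (EB and ES, 2 each) and 4 of the knockout, and ChIP-seq 1 library per mark and stage. FPKM were deposited by the authors, 1 column a library. Per the submitters' processing notes the genome build was mm10, and the tools were Cufflinks 2.2.1 and STAR 2.6.0a beside DESeq2, HTSeq and Bowtie2; their roles are not given. For ChIP the authors deposited 1 signal value a gene, labelled as RPKM (a read-based measure like FPKM) on promoters. The size of the promoter window is not given in the sources used here. Second entries of a symbol (120) were left out. limma 3.58.1 (R 4.3.3) was applied to log2(FPKM + 1) of the 8 RNA libraries with 1 mean per group, eBayes and a trend, 4 residual degrees of freedom (7.27 after moderation). P-values are two-sided and were adjusted by Benjamini-Hochberg over 14592 genes, with calls at an adjusted p under 0.05. Log2 ratios of the deposited signal used 0.1 as pseudocount. Promoters are RefSeq's (GRCm38.p6), with matches by symbol. Genes named are anchors, members of the pairs, the 15 largest changes per direction, and up to 3 called members per list and direction with the largest change. The largest changes and the list members also needed a mean of at least 5 FPKM, no overlap of the stages and a locus of at least 300 bases. Further genes are marked as chosen later. The 119 lists, 53 pairs and the members were chosen with earlier results of these data known. Same-numbered libraries are not described as paired in the labels. Python 3.11.15 with pandas 2.3.3, numpy 2.4.6, scipy 1.17.1 and matplotlib 3.10.9 did the rest. Alternatives are given in the closing section. Some genes are not reported here.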

Additional observations from a re-analysis of the deposited data

How the results depend on the processing

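The totals of genes called kept within 1.5 times their values under most of the alternatives tried. With a mean of at least 5 FPKM, which tests 10040 genes, 3630 were called higher and 2168 higher by 2-fold or more, against 5572 and 3608. Leaving out 1 wild type library gave from 7918 to 8024 calls, from 4804 to 4938 higher, from 3025 to 3202 lower, from 3535 to 3579 higher and from 1780 to 1884 lower by 2-fold or more. The replicate numbers do not pair the samples by any label, and same-numbered EB and ES wild type libraries deviated together with r = 0.161 across genes, over 2 pairs; a fit with the replicate block called 5663 higher and 3794 lower. Leaving out both knockout EB libraries, chosen after seeing the data, gave 5522 and 3649. Quantile normalization moved the split to 4408 higher and 5075 lower, and the sign of the median in 8 of the 119 lists, solute carriers and Zfp genes among them. The lists of cilium transport and interferon-stimulated genes also had more members lower than higher under it. In the lists described, a count of 5 or fewer members higher or lower shifted by at most 3 when 1 library was left out.

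Of the genes named but not called, some changed sign. With quantile normalization the Terf2 log2 change was -0.026, the Axin2 log2 change -0.14, that of Notch1 -0.29 and that of Smarcc1 0.13, and with scaling to the same total that of Smarcc1 was 0.085 and the Ddx52 log2 change 0.047. Leaving out 1 library gave from -0.28 to 0.31 for the Notch1 log2 change, from -0.12 to 0.071 for the Smarcc1 log2 change, from -0.066 to 0.22 for the Smarca4 log2 change and from -0.76 to 0.020 for the Lifr log2 change.

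Histone medians moved with the choice of genes. With 4-fold in place of 2-fold classes, H3K27me3 was -0.52 (RNA higher) and 1.63 (RNA lower), and H3K4me3 1.08, -1.23 and 0.20 in the other genes. With loci under 10 kb, H3K27me3 was 0.10, 0.96 and 0.29 in the 3 classes and H3K4me3 1.00, -0.16 and 0.36. The cause was not tested. Promoter motifs were not compared between the classes of RNA change, since fewer than 80% of their genes have a promoter in the RefSeq table. The depth of the libraries is unknown, and 2 libraries a stage limit the precision of every test.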

Other observations

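Some broad gene families stand beside shares of 38.2% higher and 25.4% lower over all tested genes. Solute carriers, which move nutrients and ions across membranes, had 75 of 186 tested members higher in EB (40.3%) and 60 lower (32.3%, median 0.20), or 58 and 74 with quantile normalization (median -0.17). Slc7a3, a cationic amino acid transporter, had 3.80 and 4.64 FPKM in EB, against 98.2 and 77.2 FPKM in ES (log2 -4.08), and the iron exporter Slc40a1 had 11.1 and 17.3 FPKM in EB, against 2.06 and 0.904 FPKM in ES (log2 2.62). Neither gene's stages overlapped. Zinc finger genes named Zfp had 124 of 318 higher (39.0%) and 56 lower (17.6%), and 70 and 107 with quantile normalization, under which all tested genes also had more lower than higher (4408 higher and 5075 lower). Genes of primary cilium transport had 20 of 46 higher (43.5%) and 6 lower (13%), with 13 higher without the EB replicate 1 and 12 without the EB replicate 2, and 6 and 13 with quantile normalization.

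Of 31 interferon-stimulated genes tested 15 were higher and 9 lower, 14 of the 31 tested through the EB libraries alone. Of the 16 expressed at both stages 3 rose and 8 fell. The membrane proteins Ifitm1 and Ifitm3, which block virus entry, had 62.3 and 74.9 FPKM in EB, against 417 and 456 FPKM in ES, and 61.0 and 58.8 FPKM in EB, against 356 and 249 FPKM in ES. Of the 9 such genes in the MHC class I list 7 rose and 1 fell, and B2m, the light chain of class I molecules, had 121 and 98.6 FPKM in EB, against 7.45 and 3.75 FPKM in ES (log2 4.12, adjusted p = 3.85e-05). EB libraries were lower for both Ifitm genes and higher for B2m. Among cell death genes, Casp8 had 5.95 and 5.31 FPKM in EB, against 0.687 and 0.233 FPKM in ES (log2 2.20) and the survival factor Mcl1 had 73.4 and 92.4 FPKM in EB, against 189 and 175 FPKM in ES (log2 -1.13). Small heat shock proteins moved apart, with Hspb1 at 79.2 and 104 FPKM in EB, against 1191 and 930.3 FPKM in ES (log2 -3.52) and Hspb7, known from heart, at 37.8 and 31.2 FPKM in EB, against 0.0181 and 0.0963 FPKM in ES (log2 5.06).

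The EB libraries differed from each other in red blood cell genes, whose markers summed to 2996 and 786 FPKM in EB, against 6.39 and 6.76 FPKM in ES. The embryonic globin gene Hbb-bh1 had 959 and 198 FPKM in EB, against 0 and 0.268 FPKM in ES, and Hba-x had 734 and 165 FPKM in EB, against 0.167 and 0.148 FPKM in ES. Globin genes are near-identical within each cluster, so the split of reads between them is uncertain. In the opposite direction, Srcin1 had 1.21 and 74.1 FPKM in EB, against 0.867 and 1.44 FPKM in ES, Pf4, a platelet chemokine, had 2.83 and 20.7 FPKM in EB, against 0 and 0 FPKM in ES and Igfbp7 had 7.59 and 37.9 FPKM in EB, against 2.38 and 2.58 FPKM in ES. These 3 were named after their values were seen. The haem enzyme Urod had 167 and 42.3 FPKM in EB, against 47.1 and 37.0 FPKM in ES, was not called, and was also named after its values were seen.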
